A study of Mus musculus with 11 samples.

Results

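Retinoid handling was followed through 9 genes of the visual cycle, Rbp3, Rdh8, Rdh12, Rdh5, Rlbp1, Rpe65, Lrat, Rgr and Abca4. They were chosen by name, for their known place in the cycle, and all 9 were among the 25311 genes measured. Single cells were captured with inDrop, a droplet method that tags each RNA molecule with a unique molecular identifier (UMI), from retinas of C57BL/6J mice at postnatal day 10. The retinas had been freed of the anterior segment and the retinal pigment epithelium (RPE) before papain dissociation, so that the RPE cells in the data were those left behind. The 11 mice formed 4 groups. Control mice (n = 3) received PBS, and their Phase I ROP littermates (n = 3) received streptozotocin (STZ), which damages insulin-producing cells and models the hyperglycemia of early retinopathy of prematurity. The ω-3 diet (n = 2) and ω-6 diet (n = 3) groups were also STZ-treated pups, littermates that were split between cages of nursing dams fed either fatty acid. All groups but the control group therefore carried STZ and no group received a diet without it.

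In the visual cycle, light isomerizes the 11-cis-retinal of opsin to all-trans-retinal in the photoreceptor outer segment. Abca4 moves the retinal to the cytoplasmic side of the disc membrane, Rdh8 and Rdh12 reduce it to retinol, and Rbp3 (interphotoreceptor retinoid-binding protein) carries retinoids through the space between photoreceptors, RPE and Müller glia. In the RPE, Lrat esterifies retinol, Rpe65 isomerizes the ester to 11-cis-retinol, Rdh5 oxidizes it, Rlbp1 (CRALBP) binds the 11-cis retinoids, and Rgr is an opsin of RPE and Müller glia that binds all-trans-retinal. At this age mouse eyes are about to open and outer segments are still growing.

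After a filter on genes per cell, 20033 cells remained, with a total of 2563064 to 6516478 UMIs and a median of 1003.5 to 2341 UMIs per cell in a mouse. The cells were clustered without the 9 members among the variable genes and named from marker lists that hold none of them, which gave 9860 rods, 1126 cones, 1446 Müller glia, 3303 amacrine cells, 3696 bipolar cells and 74 RPE cells. A total of 1157 cell barcodes occurred in more than 1 library, in 2352 cells. The control and Phase I ROP libraries differed in immediate-early genes, which cells can switch on during dissociation. These genes (Fos, Jun, Egr1 and 5 others) summed to 101 to 213 CPM (counts of UMIs scaled to 1000000 per class) in the rods of control mice and to 1397 to 1850 in Phase I ROP mice. In the whole retina 8 of 8 were higher in Phase I ROP. Treatment and any difference in handling between the control and Phase I ROP libraries cannot be told apart. Rod markers also differed between the groups in cones, Müller glia, amacrine cells and RPE cells, and those values are given beside the results for these classes.

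The members fell into 3 patterns over the cell classes. Photoreceptors held most of the Rbp3, Rdh12 and Abca4 UMIs, Müller glia held most of Rlbp1, and the few RPE cells held most of Rpe65, Lrat and Rgr. Levels below are CPM of a class, summed over the mice, with exact Poisson intervals at 95% that cover counting error alone. All levels are compared within a gene.

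**Figure D1:**
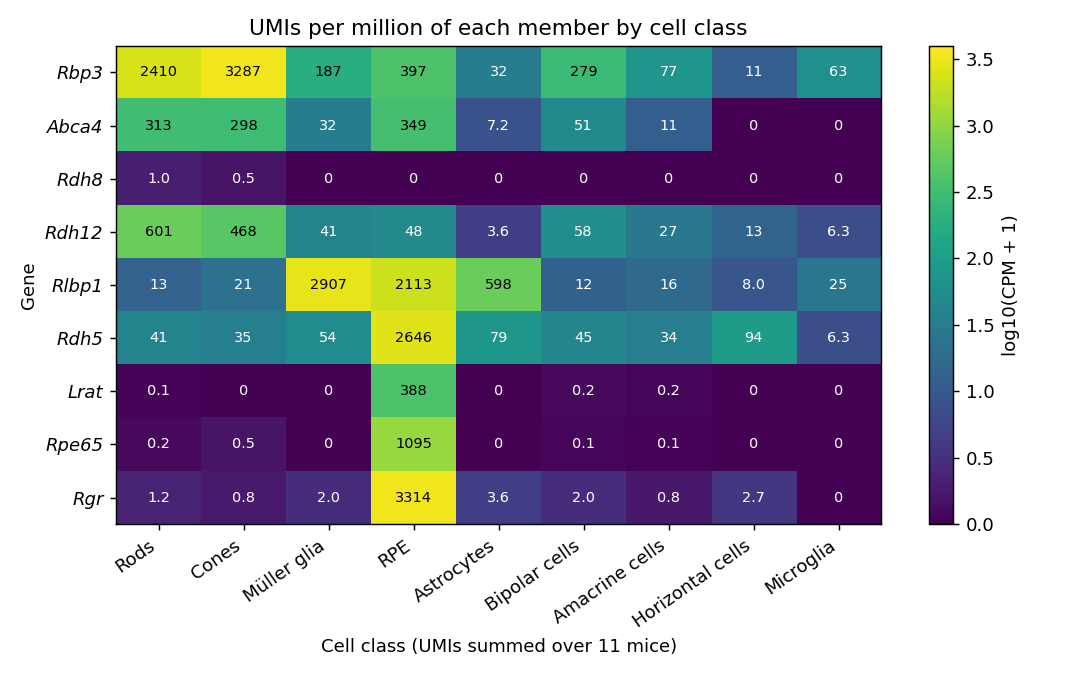
Scaled UMI counts (CPM) of each member (rows) in each cell class (columns), summed over the 11 mice, printed in each cell and coloured as log10(CPM + 1). Rbp3, Rdh12 and Abca4 were high in rods and cones, Rlbp1 in Müller glia and RPE, and Rpe65, Lrat and Rgr in RPE.

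Of the photoreceptor members, Rbp3 (chromosome 14, bases 33954003 to 33964216 of GRCm38, plus strand) had 2410.2 CPM in rods and 3287 CPM in cones, and 64.5% of its 48104 UMIs lay in rods and 25.7% in cones. A UMI of Rbp3 was found in 79.6% of rods and 97.5% of cones. Rdh12 (chromosome 12, 79208914 to 79222665, plus strand) had 601 CPM in rods and 468 CPM in cones. Abca4 (chromosome 3, 122044443 to 122180123, plus strand) had 313 CPM in rods and 298 CPM in cones. All 3 genes were therefore shared by both photoreceptor types, Rbp3 at a higher level in cones and Rdh12 at a higher level in rods, with Abca4 nearly level in these sums. By mouse, the level of Abca4 in cones ran from 36.7% to 127% of that in rods. Rdh8 (chromosome 9, 20818503 to 20826117, plus strand), the other all-trans-retinal reductase, was nearly absent. It had 16 UMIs in all cells, 13 of them in rods (1.01 CPM, interval 0.538 to 1.73) and 2 in cones, and it was found in 10 of 20033 cells. No UMI of Rdh8 lay in Müller glia, where 3 counts would have given 0.747 CPM. Of the 2 photoreceptor dehydrogenases, these retinas at P10 thus held Rdh12 in every mouse and Rdh8 at a depth that allowed no test.

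Rlbp1 (chromosome 7, 79374870 to 79387048, minus strand) marked Müller glia, in which 92.3% of its 12658 UMIs lay, at 2907 CPM. It was found in 85.1% of Müller glia, 76.6% of the 47 astrocytes and 67.6% of RPE cells, against 1.15% of rods and 3.15% of amacrine cells. Astrocytes had 598 CPM of it and RPE cells 2113 CPM. Amacrine cells, which should lack it and had a median of 3055 UMIs per cell against 2114 in Müller glia, had 16.4 CPM. The counting intervals of Müller glia (2855 to 2960 CPM) and amacrine cells (14.2 to 18.7 CPM) lay far apart. This describes clusters of these same cells and was not tested over mice.

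RPE cells were few, and the RPE members rested on 40 to 342 UMIs in them. The cluster was named from melanosome and RPE genes (Ttr, Pmel, Tyrp1, Dct, Tyr, Mlana and others): Ttr was found in 100% and Dct in 95.9% of its cells, while Best1, a channel of mature RPE, had 0 UMIs among the 103184 UMIs of these cells. Rpe65 (chromosome 3, 159599175 to 159625321, plus strand) had 113 UMIs in RPE cells, or 1095 CPM (interval 903 to 1317), against 7 UMIs in the 19959 other cells. Lrat (chromosome 3, 82892579 to 82903973, minus strand) had 40 UMIs in RPE cells, or 388 CPM (277 to 528), and 7 elsewhere. Rgr (chromosome 14, 37034909 to 37048964, minus strand) had 342 UMIs, or 3314 CPM (2972 to 3685), and 58 elsewhere, spread over 50 cells with at most 3 in a cell. In Müller glia, the other known site of Rgr, it had 8 UMIs, or 1.99 CPM, the same level as in bipolar cells (1.99 CPM). At least 1 of Rpe65, Lrat, Rgr and Rdh5 was found in 70 of the 74 cells, and 8 cells had Rpe65, Lrat and Rgr together.

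Abca4 was also found in RPE cells, at 349 CPM (244 to 483) in the sum over all mice, close to the 313 CPM of rods in the same sum. In the controls alone it had 388.5, 367 and 0 CPM in RPE cells by mouse, beside a mean of 112 CPM in rods. The ratio of Abca4 to Rbp3 UMIs in these cells was set beside that of rods. It was 0.878 in RPE cells (exact binomial interval 0.545 to 1.41) and 0.13 in rods (0.126 to 0.134). Rdh12 to Rbp3 was 0.122 in RPE cells (0.0376 to 0.308) against 0.249 in rods, a value inside that interval. Abca4 was found in 23 RPE cells of 10 mice, and the most in a single cell was 4 UMIs. Rbp3 lay in 10 RPE cells, 9 of its 41 UMIs in a single cell of an ω-6 mouse. In control RPE cells the 8 rod markers summed to 0 CPM in every mouse, and Abca4 had 4 UMIs there, in 2 of 3 mice, beside 1 UMI of Rbp3. The other Abca4 UMIs lay in groups whose RPE cells held rod markers, 8 in Phase I ROP (0 to 6634 CPM of the rod list by mouse), 7 with ω-3 (519 to 5780 CPM) and 17 with ω-6 (4457 to 9812 CPM). The part of rod RNA in these Abca4 counts was not tested.

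The levels of Rpe65 in RPE cells differed among the groups. By mouse they were 1943, 3182 and 2292 CPM in controls, 2299, 1382 and 1545 CPM in Phase I ROP, 346 and 91.7 CPM with the ω-3 diet and 633, 371 and 541 CPM with the ω-6 diet. The controls and the Phase I ROP mice overlapped, and all 5 diet mice lay below both. These values rest on 1 to 18 cells per mouse, and no test was run on RPE sums, since a fit needed at least 10 cells in every mouse of both groups. Among the other RPE members, Rgr ran from 2896 to 7342 CPM in the control and Phase I ROP mice and from 1101 to 2941 CPM in the diet mice, and the 2 sets overlapped at 1 mouse each. Rlbp1 ran from 1738 to 4274 CPM and from 849.8 to 2294 CPM, and these overlapped as well. The labels give the control and Phase I ROP mice as littermates, and likewise the diet mice, without saying whether the litters were shared, and a difference between litters was not tested. The summed CPM of the RPE marker list in these cells moved the same way, from 116119 to 162393 in controls, 77391 to 113142 in Phase I ROP and 60554 to 72157 in the 5 diet mice. Markers of other cells moved as well. The rod list was at 0 CPM in the RPE cells of controls and at 4457 to 9812 CPM with ω-6, and the Müller glia list ran from 19099 to 28361 CPM in controls, 10813 to 16685 CPM in Phase I ROP and 5709 to 9450 CPM in the diet mice. The part of these lists in the result was not tested.

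A single RPE cell of Phase I ROP replicate 1 had 16961 UMIs, against a median of 997.5 for the RPE cells. It was the only RPE cell of that mouse and held 39 of the 113 Rpe65 UMIs, 18 of the 40 Lrat UMIs, 118 of the 342 Rgr UMIs and 72 of the 218 Rlbp1 UMIs. Without this cell Rpe65 stood at 858 CPM, Lrat at 255 CPM and Rgr at 2598 CPM in RPE cells. Lrat had 0 UMIs in the RPE cells of all 3 control mice, among 12055 UMIs, which gives an upper limit of 306 CPM (exact Poisson). Its level was 815 CPM in Phase I ROP (interval 505 to 1246), 239.8 CPM with the ω-3 diet (65.3 to 614) and 308 CPM with the ω-6 diet (172 to 508). The control limit lay within the intervals of both diets and below that of Phase I ROP, but 18 of the 21 UMIs there came from the single deep cell. Phase I ROP replicates 2 and 3 had 276 and 386 CPM, on 1 and 2 UMIs. The gap to the controls therefore rests on this cell. These intervals cover counting error of UMIs pooled over mice, so that no difference between conditions is drawn from them.

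**Figure D2:**
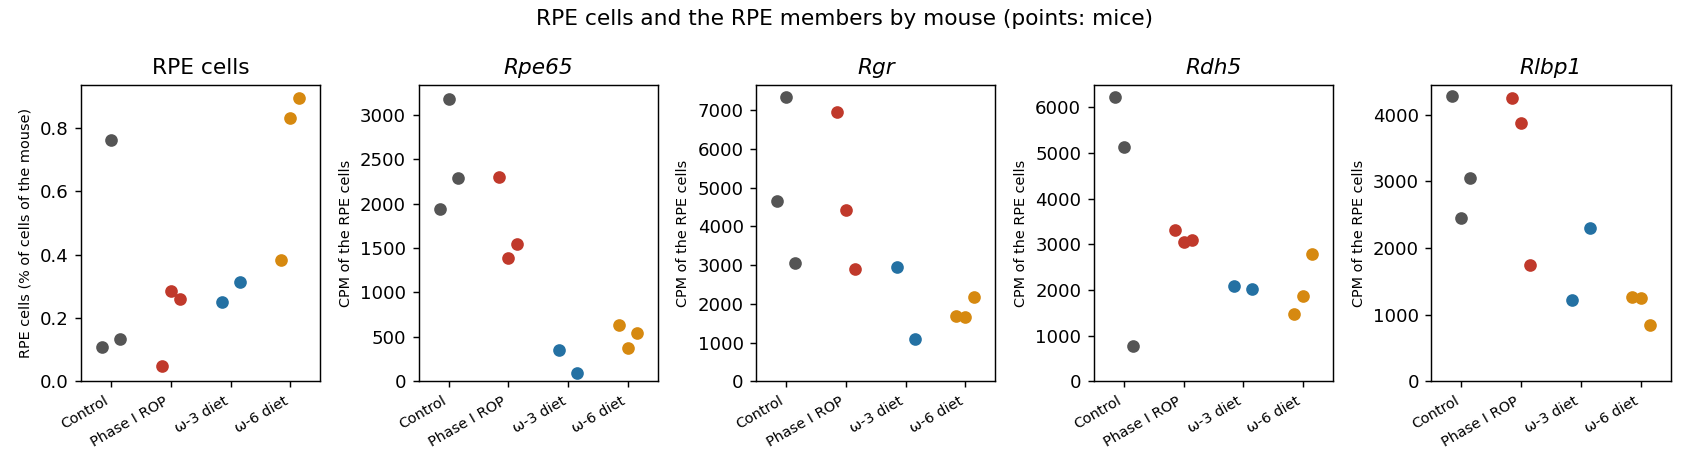
RPE cells as a percentage of the cells of each mouse, and Rpe65, Rgr, Rdh5 and Rlbp1 in CPM of the RPE cells (y axes), by condition (x axis); each point is a mouse. Rpe65 in the 5 diet mice lay below all control and Phase I ROP mice, from 91.7 to 633 CPM against 1382 to 3182 CPM.

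RPE cells were 0.335% ± 0.371 (SD, n = 3) of the cells in controls and 0.198% ± 0.13 (n = 3) in Phase I ROP, a difference within the spread between mice (two-sided exact permutation test, p = 0.8). They were 0.282% ± 0.0435 (n = 2) with the ω-3 diet and 0.702% ± 0.279 (n = 3) with the ω-6 diet (exact p = 0.2). Every ω-6 mouse had a larger share than both ω-3 mice, but 0.2 is the smallest p that 3 mice against 2 can give, and 0.1 the smallest for 3 against 3. Since the RPE was removed by hand, dissection and tissue cannot be told apart in this share. When each cell was instead given the class with its highest marker score, the RPE share was 7.63% in controls and 2.38% in Phase I ROP (exact p = 0.1), and the diets differed by -0.0287 percentage points in place of 0.42.

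Rdh5 needs a separate account, because its gene (chromosome 10, 128913593 to 128922888, minus strand) overlaps Bloc1s1 (128917882 to 128924035), a subunit of a lysosome-related organelle complex, on the same strand. Of the 2809 exon bases of Rdh5, 720 are also exon bases of Bloc1s1, which is 55.9% of the exon bases of Bloc1s1. A read from the shared exons cannot be assigned to either gene by sequence. In RPE cells, Rdh5 had 273 UMIs, or 2646 CPM (2341 to 2979), in all 11 mice and 86.5% of the cells. Bloc1s1 had 26 UMIs there, so that the ratio of Rdh5 to Bloc1s1 was 10.5 (7.01 to 16.4). In the 5 neural and glial classes with the most UMIs the ratio was nearly fixed: 0.68 in rods, 0.65 in cones, 0.699 in Müller glia, 0.706 in amacrine cells and 0.68 in bipolar cells. In rods it was 0.595, 0.651, 0.747 and 0.686 in the control, Phase I ROP, ω-3 and ω-6 groups, with overlapping intervals. Over these 5 classes and the 4 conditions it ran from 0.472 in control cones to 0.815 in Phase I ROP cones, on 17 and 22 Rdh5 UMIs. Outside the RPE, Rdh5 and Bloc1s1 counts are therefore reported as uncertain between the 2 genes. The RPE level is the one in which Rdh5 stood apart from its neighbour.

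**Figure D3:**
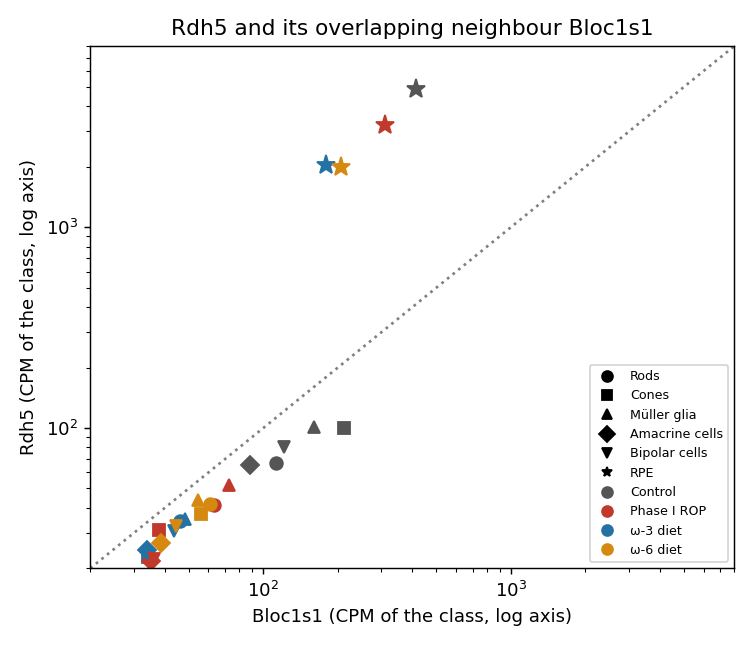
Rdh5 against Bloc1s1, both in CPM of a class on log axes, for 6 cell classes (symbols) and 4 conditions (colours), summed over the mice of a condition; the dotted line marks equal levels. RPE cells lay above the line, with ratios of 9.7 to 11.8, and every other class lay below it.

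The first comparison set the STZ-treated Phase I ROP mice against the control mice. In rods, Rbp3, Rdh12 and Abca4 were all higher in Phase I ROP. Rbp3, the retinoid carrier, had 707, 504 and 630.3 CPM in the rods of the control mice and 2324, 2802 and 2959.9 CPM in those of the Phase I ROP mice. The means were 614 ± 102 and 2695 ± 331 CPM (SD, n = 3 each) and the groups did not overlap. After scaling by the trimmed mean of M values (TMM), which adjusts for composition so that a fitted change can differ from the ratio of the CPM, the change was 1.79 ± 0.24 on the log2 scale (SE, edgeR's quasi-likelihood test, adjusted p = 3.4e-05). Abca4, the retinal flippase, went from 112 ± 42.1 to 373 ± 52.6 CPM, with 65.2 to 147 CPM in the controls and 325 to 429 CPM in Phase I ROP (log2 change 1.36 ± 0.25, edgeR adjusted p = 0.00063). Rdh12, the reductase, went from 265 ± 70.2 to 732 ± 100.2 CPM, with no overlap between mice (1.11 ± 0.23, edgeR adjusted p = 0.0012). Rdh5 fell by 1.01 on the log2 scale (SE 0.33, edgeR adjusted p = 0.024), from 64.0 ± 21.9 to 40.9 ± 5.41 CPM with overlapping mice. Bloc1s1 fell by 1.08 beside it. The Rdh5 call held in 12 of 18 alternatives (adjusted p from 0.00506 to 0.1998) and was lost without control replicate 1 or 3, without Phase I ROP replicate 2 or 3, without the filter on low counts and with thinned sums.

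Thus 4 of the 9 members passed the filter on low counts in rods and all 4 were called, 3 higher and 1 lower, where 38.4% of all genes tested in rods were called, 18.5% higher and 19.9% lower. The share of rods with an Rbp3 UMI went from 37.7% ± 8.29 to 81.1% ± 3.53, and after each cell was thinned to 500 UMIs from 24.0% ± 4.39 to 68.8% ± 4.48. Amacrine cells gave the background of that measure: 0.966% in controls and 9.0% in Phase I ROP, or 0.25% and 2.75% after thinning. Thinning left out 49 control rods and 275 Phase I ROP rods, and the median rod had 992 and 833 UMIs.

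Rod markers moved with these genes. Of the 8 genes of the rod list, all tested in rods, 4 were higher in Phase I ROP, among them Gnat1, Nrl and Cnga1, and none was lower. Nrl, the transcription factor that specifies rods, went from 753 ± 244 to 1955 ± 357 CPM (1.03 ± 0.26, edgeR adjusted p = 0.0057). It is the rod marker given beside the members in the other classes, a choice made after its values were seen. Nr2e3, a rod transcription factor (0.04), and Sag, rod arrestin (-0.01), did not pass the test. The list median was 0.72 on the log2 scale beside 0.04 over all genes tested. Lists of other cells mostly went the other way in rods. Of the 6 bipolar genes tested, 4 were lower and 1 higher (median -1.87), and 2 of 3 RPE genes were lower (-2.17). Lower too were 2 of 4 amacrine genes, 2 of 3 horizontal genes and 1 of 4 Müller glia genes, with 0 higher. The cone, endothelial and microglia lists had 1 gene tested each, and it was lower. The part of rod markers and of RNA from other cells in the change of the 3 members was not tested.

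Cones showed the same direction with smaller numbers. Rbp3 had 2025, 1797 and 2372 CPM in control cones and 3809, 4039 and 4314 CPM in Phase I ROP cones, without overlap (log2 change 0.78 ± 0.26, edgeR adjusted p = 0.035). Rdh12 had 324, 130.2 and 115 CPM in control and 362, 481 and 426 CPM in Phase I ROP cones (1.12 ± 0.33, edgeR adjusted p = 0.019). Abca4 had 54.0, 78.1 and 157 CPM in control and 239.8, 280.5 and 242 CPM in Phase I ROP cones, also without overlap, and missed the threshold (0.96 ± 0.40, edgeR adjusted p = 0.087). So 2 of the 3 members that passed the filter were called in cones, both higher, where 18.5% of all genes were called, 10.6% higher and 7.85% lower. The control cones were 14, 13 and 47 cells. Leaving out control replicate 2 or Phase I ROP replicate 3 ended both calls, leaving out control replicate 1 or Phase I ROP replicate 2 left 1, and DESeq2, which called 12.7% of all genes, called Rbp3 alone (Rdh12 DESeq2 adjusted p = 0.0501).

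Rod transcripts moved in cones as well. Nrl had 0, 0 and 1 UMI in the cones of the 3 control mice, or 0 to 10.5 CPM, against 558 ± 221 CPM in Phase I ROP cones, 1290.4 ± 159 CPM with the ω-3 diet and 1439 ± 239.7 CPM with the ω-6 diet. In the cones, 6 of 8 rod markers were higher in Phase I ROP, while 4 of 8 cone markers were lower (Opn1mw, Gnat2, Pde6h and Gngt2) and 0 were higher. The part of these transcripts in the result for the members was not tested.

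The balance of Rbp3 between the photoreceptor types differed between the groups. In each mouse, the Rbp3 level in cones was expressed as a percentage of that in rods. It was 286% to 376% in the controls and 144% to 164% in Phase I ROP, with means of 340% ± 47.2 and 151% ± 11 (n = 3 each, two-sided exact permutation test, p = 0.1, the smallest that 3 against 3 can give). In the diet groups it was 130.1% and 131% with ω-3 and 112% to 125% with ω-6 (exact p = 0.2). Cones thus had more Rbp3 per UMI than rods in all 11 mice, and the controls had the widest gap. For Rdh12 the percentage was 68.9% ± 26.4 in controls and 57.8% ± 2.83 in Phase I ROP, and for Abca4 it was 94.7% ± 50.3 and 68.4% ± 4.71, and both pairs overlapped (exact p = 0.7 and 0.4). With ω-3 and ω-6 the means were 78.1% and 90.8% for Rdh12 and 87.8% and 115% for Abca4 (exact p = 0.2 each), and the diet groups did not overlap for either gene. Nrl moved the other way, from 0.407% ± 0.704 to 28.02% ± 8.22 (exact p = 0.1). The summed rod list, as the median over mice, was at 5741 CPM in cones and 16214 CPM in rods of controls. In Phase I ROP it was at 11428 and 35318 CPM, higher in both classes. With ω-3 it was at 20508 CPM in cones and 30996.5 CPM in rods, and with ω-6 at 22902 and 28700 CPM. The part of rod transcripts in the cone values was not tested.

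**Figure D4:**
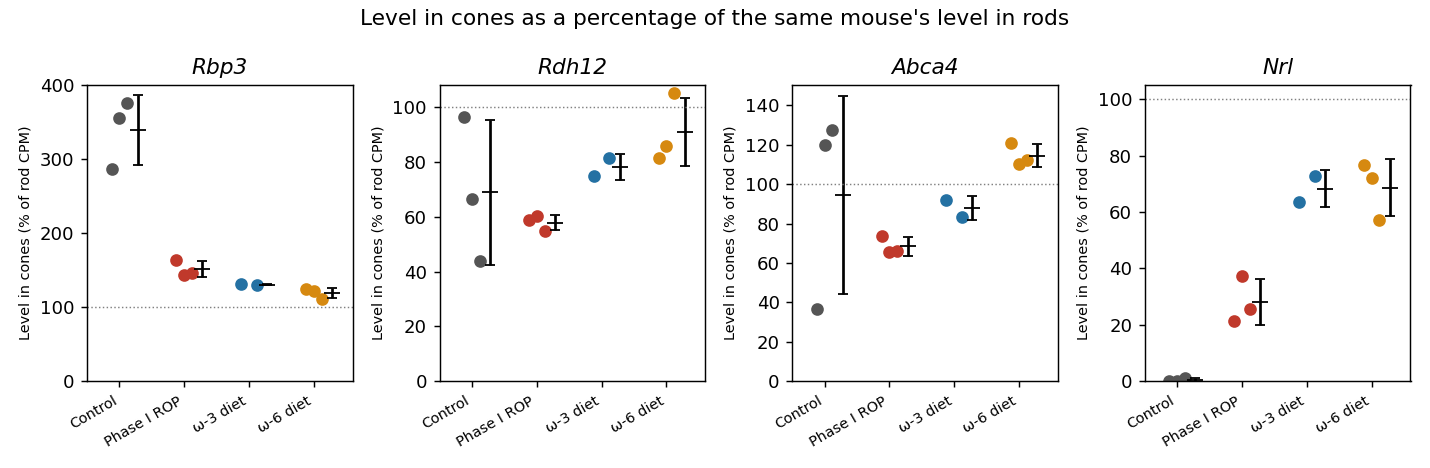
Level of Rbp3, Rdh12, Abca4 and Nrl in cones as a percentage of the CPM in rods of the same mouse (y axis), by condition (x axis); points are mice, black marks the mean and SD, and the dotted line is equal levels. Rbp3 in the controls lay between 286% and 376%, above all other mice, and the mean for Nrl went from 0.407% in controls to 68.6% with the ω-6 diet.

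In Müller glia, Rlbp1 did not pass the test. It had 3029.6, 3016 and 2581 CPM in controls and 3489, 3897 and 2864 CPM in Phase I ROP, with overlapping mice and means of 2876 ± 255 and 3417 ± 520 CPM (log2 change 0.12 ± 0.19, edgeR adjusted p = 0.71). The share of Müller glia with an Rlbp1 UMI was 87.9% in controls and 86.5% in Phase I ROP, or 64.2% and 68.6% after thinning. The diet mice had 2168 and 3377 CPM with ω-3 and 3380.0, 3224 and 2380 CPM with ω-6, of which 1 mouse of each diet lay below all control and Phase I ROP mice. Group means of Rlbp1 in Müller glia ran from 2772 to 3417 CPM over the 4 conditions. Rbp3, which Müller glia are not known to make, was called higher there, from 10.2 ± 11.7 to 129 ± 56 CPM (3.13 ± 0.57, edgeR adjusted p = 0.0033), as the only 1 of the 3 members that passed the filter, where 11.5% of all genes were called, 6.11% higher and 5.4% lower. It passed the filter in Müller glia through the Phase I ROP mice alone, so that no conclusion is drawn from its call. Of the 4 rod markers tested in Müller glia, 3 were higher as well, among them Nr2e3 and Gngt1. As a percentage of the level in rods of the same mouse, Rbp3 in Müller glia was 1.58% in controls and 4.68% in Phase I ROP, beside 0.911% and 3.73% for Nrl. Rdh12 was at 1.73% and 3.27% and Abca4 at 3.81% and 2.59%, and neither passed the filter there. Without the top 5% of each library by doublet score, or after thinning the sums to the smallest library, Rbp3 was no longer among the genes tested.

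Amacrine cells do not take part in the visual cycle and serve as a reading of photoreceptor RNA outside photoreceptors. Rbp3 had 0.99, 2.9 and 3.4 CPM in the amacrine cells of controls and 48.8, 52.1 and 71.5 CPM in Phase I ROP (4.18 ± 0.42, edgeR adjusted p = 8.9e-06), Rdh12 rose with it (1.2 ± 0.39, edgeR adjusted p = 0.023, DESeq2 adjusted p = 0.0547) and Rdh5 fell by 1.94, as did Bloc1s1 by 1.68. The Rdh12 call held in 10 of 15 alternatives and was lost with DESeq2, without control replicate 1 or 3, without Phase I ROP replicate 2 and without the highest doublet scores. All 3 members that passed the filter were called, where 38.7% of all genes were called, 18.1% higher and 20.6% lower. Rbp3 had 1, 3 and 3 UMIs in the amacrine cells of the controls, and Rdh12 had 8, 13 and 8. Both passed the filter through the Phase I ROP mice alone, so that no conclusion is drawn from their calls. Of the 8 rod markers, 7 were higher and 1 was lower. As a percentage of the level in rods of the same mouse, Rbp3 in amacrine cells was 0.415% in controls and 2.13% in Phase I ROP, and Nrl was 1.25% and 2.47%. Rdh12 (4.04% and 3.92%, exact p = 0.9) and Abca4 (3.01% and 1.56%, exact p = 0.5) overlapped between these groups, so that the percentage did not move alike for the 3 photoreceptor members. With the diets, Rbp3 was at 5.93% (ω-3) and 3.56% (ω-6) and Nrl at 5.88% and 3.24%. Rbp3 and Nrl thus moved in the same direction over the 4 groups in amacrine cells, and free photoreceptor RNA and expression within these cells cannot be told apart.

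**Figure D5:**
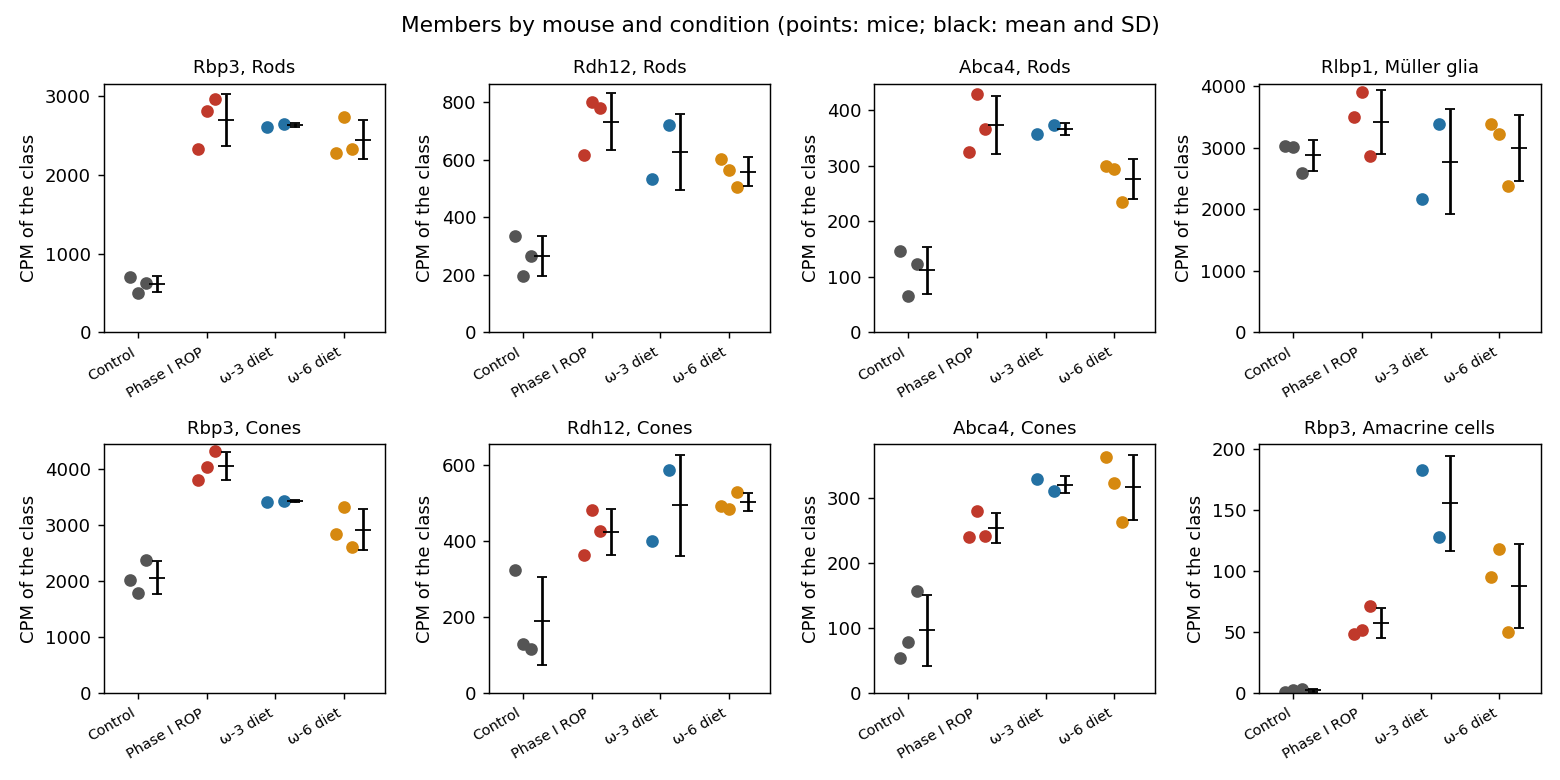
CPM of Rbp3, Rdh12 and Abca4 in rods and cones, of Rlbp1 in Müller glia and of Rbp3 in amacrine cells (y axes, from 0) by condition (x axis); points are mice and black marks the mean and SD. In rods the 3 control mice lay below all 8 STZ-treated mice for each of the 3 genes, and Rlbp1 in Müller glia overlapped over all groups.

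In rods, the order of the groups was control, then ω-6, ω-3 and Phase I ROP for Rbp3, Rdh12 and Abca4 alike. For Rbp3 the means of the last 3 were 2441 ± 247, 2625 ± 25.9 and 2695 ± 331 CPM, which did not differ beyond their spread, while the control mean of 614 CPM lay far below. For Rdh12 they were 558 ± 50.1, 628 ± 132 and 732 ± 100.2 CPM, again overlapping between neighbours. For Abca4 they were 276 ± 35.7, 365 ± 10.6 and 373 ± 52.6 CPM, in which the 3 ω-6 mice (235 to 299 CPM) lay below both ω-3 mice (358 and 373 CPM) and the ω-3 mice within the Phase I ROP range.

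Summed over all cells of a mouse, 6 of the 9 members passed the filter and 4 were called, 3 higher and 1 lower, where 48.1% of all genes were called, 24.7% higher and 23.4% lower. Here fewer cells of a type and less RNA per cell cannot be told apart. Rbp3 went from 136 ± 47.7 to 1178 ± 165 CPM (2.84 ± 0.23, edgeR adjusted p = 5.7e-06), Abca4 from 23.2 ± 7.96 to 138 ± 6.52 CPM (2.29 ± 0.21, edgeR adjusted p = 1.1e-05) and Rdh12 from 48.4 ± 14.6 to 264 ± 34.4 CPM (2.17 ± 0.20, edgeR adjusted p = 1.3e-05). These whole-retina changes were larger than those within rods. Rods were 24.1% to 31.2% of the cells of a control mouse (190 to 466 cells) and 47.0% to 55.1% in Phase I ROP (656 to 1273 cells). Rdh5 fell by 1.23 (SE 0.17, edgeR adjusted p = 0.00016). Bloc1s1 fell by 1.43 beside it, and most counts of Rdh5 lay outside the RPE, where they are uncertain between these genes. Rlbp1 (278 ± 55.7 and 306 ± 76.7 CPM) and Rgr (11.7 ± 11.8 and 16.5 ± 16.9 CPM) overlapped between the groups and did not pass the test, and Rgr rested on control replicate 2 and Phase I ROP replicate 1, which had 64 and 119 of its UMIs. Without Phase I ROP replicate 1 its log2 difference was -1.05 in place of 0.33.

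The second comparison asked how the ω-6 and ω-3 diets differed in STZ-treated pups. No member was called in any class by edgeR at an adjusted p under 0.05. In rods, 1 of 12508 genes was called, 0.00799% of those tested, and 0 in cones, Müller glia, amacrine cells and the whole retina (0% each). At an unadjusted p under 0.05 stood 0 of the 5 members that passed the filter in rods, where 11.1% of all genes did. In cones it was 1 of 5 (7.87% of all genes), in Müller glia 0 of 5 (3.78%), in amacrine cells 2 of 5 (9.94%) and in the whole retina 3 of 7 (7.06%). DESeq2 called 45 genes in rods (7.19% of those it gave an adjusted p), 2 in cones (0.0219%), 2 in Müller glia (0.0254%), 10 in amacrine cells (0.154%) and 23 in the whole retina (0.958%), and none of the members that it gave an adjusted p was among them. Rbp3 in rods differed by 0.02 ± 0.13 on the log2 scale, Rdh12 by -0.05 ± 0.16 and Abca4 by -0.28 ± 0.15 (edgeR adjusted p = 0.96, 0.93 and 0.49), where positive is higher with ω-6. In cones the same genes differed by -0.19 ± 0.13, 0.06 ± 0.18 and 0.02 ± 0.18, and Rlbp1 in Müller glia by 0.17 ± 0.20 (edgeR adjusted p = 0.999). A p above the threshold does not show that the diets acted alike.

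The smallest unadjusted p of a member in this comparison was that of Rpe65 in the whole retina. It had 0.353 and 0.307 CPM in the ω-3 mice (2 UMIs each) and 1.97, 1.28 and 2.3 CPM in the ω-6 mice (10, 8 and 10 UMIs), a log2 difference of 2.47 ± 0.71 (unadjusted p = 0.0065, edgeR adjusted p = 0.68). Rgr had 4.76 and 2.46 CPM against 5.13, 6.42 and 8.95 CPM (1.01 ± 0.40, unadjusted p = 0.0328, edgeR adjusted p = 0.68). The groups did not overlap for either gene, and the share of all genes without overlap was not counted. Rpe65 passed the filter through the ω-6 mice alone, so that no conclusion is drawn from its p. The RPE cells moved with both genes, 6 and 8 in the ω-3 mice and 10, 18 and 12 in the ω-6 mice. So did Ttr, an RPE gene that carries retinol-binding protein in plasma and was on the wider retinoid list (48.0 ± 17.3 and 132 ± 12.2 CPM, edgeR adjusted p = 0.64). The part of RPE cell number in these values was not tested. In amacrine cells, Rbp3 (-0.73 ± 0.27) and Rdh12 (-0.71 ± 0.26) were lower with ω-6 at an unadjusted p of 0.018 and 0.017 (edgeR adjusted p = 0.48 and 0.47), where 6 of 8 rod markers also had an unadjusted p under 0.05. The others under that level were Rdh5 in the whole retina (0.46 ± 0.18, edgeR adjusted p = 0.68) and Rlbp1 in cones (1.33 ± 0.56, edgeR adjusted p = 0.62). Bloc1s1 differed beside Rdh5 in the whole retina (0.41 ± 0.18, edgeR adjusted p = 0.68).

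A list of 45 other retinoid genes (binding proteins, dehydrogenases, retinaldehyde dehydrogenases, receptors and transporters) gave the setting. In rods, 12 of them passed the filter, 6 were called higher and 1 lower in Phase I ROP, where 18.5% of all genes were called higher and 19.9% lower, with a median of 1.18 on the log2 scale beside 0.04 for all genes. Dhrs3, which reduces all-trans-retinal, rose from 26.9 ± 12.2 to 112 ± 5.57 CPM in rods (1.62 ± 0.32, edgeR adjusted p = 0.0011). Rdh11, a retinol dehydrogenase related to Rdh12, rose from 10.8 ± 9.44 to 70.7 ± 11.1 CPM (2.2 ± 0.48, edgeR adjusted p = 0.0022). Scarb1, a scavenger receptor that takes up carotenoids and lipoprotein lipid, rose by 1.04 and the retinoid X receptors Rxra and Rxrb by 2.05 and 1.73. Aldh1a3, which makes retinoic acid from retinal, fell by 3.49 (SE 0.43, edgeR adjusted p = 1.7e-05), from 154 ± 96.9 to 17.0 ± 5.10 CPM in rods. Rdh11 passed the filter in rods through the Phase I ROP mice alone, and Aldh1a3 through the controls alone. No conclusion is therefore drawn from their calls in rods, which are among the 6 higher and 1 lower.

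In cones, 2 of the 4 tested in this comparison were called (18.5% of all genes), Rdh11 (3.83 ± 0.96) and Scarb1 (1.58 ± 0.48), both higher. In Müller glia, 2 of 8 were called (11.5% of all genes), 1 of them higher, Cyp1b1, a cytochrome that oxidizes retinol, which rose by 1.47 (SE 0.31, edgeR adjusted p = 0.0077). In amacrine cells, 2 of 11 were higher (Rxrb by 1.38 and the retinoic acid receptor Rara by 1.28) and 3 lower, Crabp1, a cellular retinoic acid-binding protein (log2 change -1.44), Aldh1a3 (-1.71) and Dhrs4 (-1.26), where 38.7% of all genes were called. In the whole retina, 9 of 26 were higher and 7 lower (48.1% of all genes called), those with the smallest p being Aldh1a3 (-2.61), Crabp1 (-1.55), Rxra (2.54), Scarb1 (1.29), Rxrb (1.37) and Dhrs3 (1.92). With the diets, edgeR called none of the 17 that passed the filter for rods, 13 for cones, 16 for Müller glia, 19 for amacrine cells and 30 for the whole retina, while 1, 0, 0, 1 and 3 of them had an unadjusted p under 0.05. DESeq2 called Ttr in the whole retina.

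The genes whose levels followed the members most closely were found over 21 sums of a class and a condition with at least 30 cells, which share mice and libraries, as Pearson's r of log2 CPM. The closest to Rbp3 were Cdhr1 (0.986), a cadherin of photoreceptor discs, A930003A15Rik (0.980) and Rtbdn (0.980). Those closest to Rdh12 were Mak (0.981) and Rpgrip1 (0.970), genes of the photoreceptor cilium, and Nxnl2 (0.969). Abca4 was followed by Llgl2 (0.964), Fam161a (0.963) and Nrtn (0.963). The genes most like Rlbp1 were Sbspon (0.984), Gm37509 (0.981) and Gpx8 (0.978). Rgr was followed by Ttr (0.908), Pltp (0.902) and Rdh5 (0.882), and Rdh5 by Taldo1 (0.951), Tyr (0.902) and Rpusd2 (0.900). RPE cells entered only as the ω-6 sum (40 cells), since the other groups had fewer than 30. Rgr and Rdh5 were far higher in that sum than in all others, so that their correlations rest largely on a single point. Rpe65, Lrat and Rdh8 had fewer than 200 UMIs and were not compared.

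The promoters of Rbp3, Rdh12 and Abca4, which were called higher in the rods of Phase I ROP mice, and of Rpe65, found in RPE cells, are shown as the 250 bases before the RefSeq start (GRCm38.p6), read 5′ to 3′ on the gene's strand. Capitals mark matches on either strand to TAATCC (the core bound by the photoreceptor factors Crx and Otx2), TGCTGA (part of the site of Nrl), ACAATGG (Sox), CATGTG (the E-box of Mitf) and CACGTG (E-box).
Rbp3, chr14:33953753-33954002, plus strand: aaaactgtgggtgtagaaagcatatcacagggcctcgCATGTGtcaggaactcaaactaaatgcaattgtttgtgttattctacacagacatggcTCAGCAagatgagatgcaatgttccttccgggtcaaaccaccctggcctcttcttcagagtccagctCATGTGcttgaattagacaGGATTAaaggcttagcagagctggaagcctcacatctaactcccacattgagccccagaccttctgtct
Rdh12, chr12:79208663-79208912, plus strand: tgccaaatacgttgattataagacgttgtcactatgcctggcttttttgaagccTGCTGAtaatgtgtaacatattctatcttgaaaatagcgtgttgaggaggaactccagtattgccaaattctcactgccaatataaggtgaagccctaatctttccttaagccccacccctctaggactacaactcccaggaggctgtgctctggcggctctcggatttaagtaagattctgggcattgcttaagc
Abca4, chr3:122044210-122044459, plus strand: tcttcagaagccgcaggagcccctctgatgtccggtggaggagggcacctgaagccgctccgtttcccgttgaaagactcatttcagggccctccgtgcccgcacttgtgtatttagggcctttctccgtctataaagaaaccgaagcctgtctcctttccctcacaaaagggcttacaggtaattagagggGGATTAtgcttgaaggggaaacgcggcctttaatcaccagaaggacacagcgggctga
Rpe65, chr3:159598931-159599180, plus strand: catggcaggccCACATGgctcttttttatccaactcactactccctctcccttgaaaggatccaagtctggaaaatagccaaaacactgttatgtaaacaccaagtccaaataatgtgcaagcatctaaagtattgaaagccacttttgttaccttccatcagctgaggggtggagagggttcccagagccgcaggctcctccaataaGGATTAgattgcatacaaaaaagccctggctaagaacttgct

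Matches were searched in windows of 300 bases, which reach 50 bases past the start. TAATCC was present in Rbp3 (69 bases before the start), Abca4 (58 bases), Rpe65 (42 bases) and Rgr (167 bases), and in 7.06% of all 32851 RefSeq windows. TGCTGA was present in Rbp3, Rdh8, Rdh12 and Rlbp1, beside 19.5% of all windows, and Rdh12 held it before and after the start. CATGTG was present in Rbp3, in 2 places, and in Rlbp1, Rpe65 and Rgr, beside 14.2% of windows. ACAATGG was present in Rdh5 alone among the members, beside 3.66% of windows, and CACGTG in none of the 9, beside 7.15%. Lrat held none of the 5 motifs in its window. Of the 3 genes that rose together in rods, Rbp3 and Abca4 had the TAATCC letters and Rbp3 and Rdh12 the TGCTGA letters.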

How the data were processed

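Retinas of 11 mice were profiled by inDrop. The authors made the deposited UMI counts with bcbio-nextgen, umis and Rapmap (GRCm38, build patch p6, per the labels) and excluded barcodes with few reads. The deposited counts were whole numbers for 25311 genes and 20067 cells. The members and gene lists were chosen with earlier results of these data known. Cells with over 300 genes were clustered in Seurat 5.3.0 (R 4.3.3, 2000 variable genes without the members, 75 of 100 components, resolution 0.2). Clusters were named from marker lists by leading genes or, for several rod and amacrine clusters, by the share of cells with the markers. Clusters of 391 cells stayed unnamed. Levels by class are descriptions, since all genes of the cells entered the clusters. No doublets were removed, and an alternative left out the top 5% of each library by Scrublet score. Counts were summed per mouse and class where every mouse had at least 10 cells and tested with edgeR 4.0.16 (filterByExpr, TMM, quasi-likelihood, Benjamini-Hochberg adjusted p under 0.05), with DESeq2 1.42.0 as an alternative. The filter on low counts also keeps a gene that reaches the count in a single group. The labels do not say more of the mice than their group, number and that each pair of groups were littermates, so p-values measure the spread between these libraries. Named from the 45 other retinoid genes were at most 6 called genes per class and comparison with the smallest p, and for each member with at least 200 UMIs the 3 most correlated genes. Intervals are exact Poisson or binomial at 95% and, like the limit of 3 counts, cover counting error alone. Exact permutation tests were two-sided. Scripts were tested on simulated counts. Protein sequences were not used here. Some genes count in the lists while their own values are not reported here. Deposited totals per mouse, before the filter on cells, were 2565568 to 6517776 UMIs.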

Additional observations from a re-analysis of the deposited data

How the results depend on the processing

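In rods, Rbp3, Rdh12 and Abca4 were called in 18 of 18 alternatives and Rdh5 in 12 of 18, including 2 rod definitions added after seeing the data. The log2 change ran from 1.25 to 2.15 for Rbp3, from 1.02 to 1.71 for Abca4 and from 0.49 to 1.47 for Rdh12. The highest edgeR adjusted p was 0.00078 for Rbp3, 0.0063 for Abca4 and 0.0497 for Rdh12, the last just under the threshold. Over all member fold changes, 267 kept direction and side of the threshold in Phase I ROP against control, 21 lost the call, 3 gained it and 5 changed sign, and for the diets the counts were 378, 0, 1 and 16. The cause of a change was not tested. Of the members called in cones (2), DESeq2, the replicate block and thinned sums each left 1, and leaving out a mouse gave 0 to 2. Of those in Müller glia (1), leaving out high Scrublet scores or thinning the sums left 0, because Rbp3 no longer passed the filter, and classes by marker score gave 2. For the diets in amacrine cells, leaving out high Scrublet scores gave 1 in place of 0. The diet difference in RPE share was -0.0287 by marker score in place of 0.42. Thinned to 500 UMIs, the share of cells with Rbp3 was 24.0% and 68.8% in rods and 0.25% and 2.75% in amacrine cells (control, Phase I ROP), and with Rlbp1 64.2% and 68.6% in Müller glia. DESeq2 called 1 other retinoid gene in Müller glia in place of 2, and 1 in the whole retina for the diets in place of 0. Sign changes were Rgr in the whole retina without high Scrublet scores (-1.50), and for the diets Rbp3 in rods without a filter (-0.000634), Rdh12 in rods with the replicate block (0.0172), Rbp3 in Müller glia by marker score (-0.126) and Rlbp1 in amacrine cells without high Scrublet scores (0.56). Leaving out a mouse moved Rlbp1 in the whole retina over -0.35 to 0.0676 and Rgr over -1.05 to 1.52. For the diets it moved Rbp3 over -0.0738 to 0.0817 in rods, -0.27 to 0.55 in Müller glia and -0.17 to 0.0381 in the whole retina, Rdh12 over -0.27 to 0.21, -0.19 to 0.37 (cones) and -0.37 to 0.26 (whole retina), Abca4 over -0.0798 to 0.14 in cones and -0.26 to 0.76 in Müller glia, and Rlbp1 in Müller glia over -0.13 to 0.54.

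Genes called over all alternatives, with the reported count first, were 3062 (1705 to 4986) in rods, 586 (134 to 1212) in cones, 565 (294 to 674) in Müller glia, 4363 (3032 to 4870) in amacrine cells and 7677 (6094 to 8196) in the whole retina, and for the diets 1 (0 to 151), 0 (0 to 23), 0 (0 to 13), 0 (0 to 98) and 0 (0 to 75). Mice of the same number correlated by -0.0171, 0.102 and 0.145 (control and Phase I ROP) and 0.0749 and 0.260 (diets). These are correlations of deviations from the group mean, which are tied to each other in groups this small. They cannot show whether mice of the same number share more than the number. The replicate block changed no other count of members.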
